A study of Rattus norvegicus with 16 samples.

Results

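The osteoclast resorption genes are the genes with which an osteoclast dissolves bone mineral and digests bone matrix. They were set as a list of 10 genes: Acp5, Ctsk, Tcirg1, Clcn7, Atp6v0d2, Calcr, Ocstamp, Nfatc1, Ostm1 and Car2. Every probe set whose only gene symbol in the platform annotation was one of these names was taken, whatever its signal. This gave 11 probe sets for 8 of the 10 genes, out of 14218 genes with such a probe set on the array. Calcr, Car2 and Tcirg1 had 2 probe sets each, and no probe set carried the name Atp6v0d2 or Ocstamp, which are not analysed here. The RNA came from the proximal femur of 4-week-old rats of 4 inbred strains, with 4 arrays per strain and 16 in all. The strains were Fischer 344 (F344), Lewis (LEW), Copenhagen 2331 (COP) and Dark Agouti (DA). F344 and LEW are the parents of a cross in which a region of chromosome 4 was linked to skeletal traits of the femoral neck, and Calcr is the only one of the 10 genes on that chromosome. The labels name no treatment, and they do not state whether a strain's 4 samples are 4 different rats. The p-values therefore rest on sample-to-sample spread alone, which may be technical.

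Osteoclasts are large multinucleated cells that form by fusion of precursors of the monocyte line. An osteoclast seals off a patch of bone, pumps protons into the space through a vacuolar ATPase in its ruffled border, and lets chloride follow through an antiporter, so that mineral dissolves. Carbonic anhydrase II makes the protons from water and carbon dioxide, and acid proteases then cut the exposed collagen. The signal of RANKL, acting through the transcription factor NFATc1, switches most of these genes on. Whole femur RNA holds osteoclasts beside marrow, cartilage, bone-forming cells and muscle. In such RNA fewer osteoclasts and less RNA per osteoclast cannot be told apart, and Car2 is also known as an abundant enzyme of red cells.

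In mouse osteoclasts, Acp5, Ctsk, Clcn7 and Ostm1 are known targets of MITF, a transcription factor that binds the letters TCATGTG or TCACGTG, and the promoters are shown for that reason. RefSeq promoters of build GRCr8, each with 250 bases before a gene's start and 50 after it, were available for 7 of the 10 genes, which had 8 promoters. The letters TCATGTG or TCACGTG stood on one of the strands in 3 of the 8, against 6.67% of 33469 promoters (2231) of the same length. The choice of letters was made after these promoters had been read. A match is a description of the letters and shows no binding in these femurs. The windows holding the matches are given 5′ to 3′ on the strand of the gene, with the match in capitals. The Ctsk match lies 151 bases before the start, the Acp5 match 72 bases before the second of its starts, and the Clcn7 matches 35 and 13 bases before the start.
Ctsk, chr2:185747367-185747433, plus strand: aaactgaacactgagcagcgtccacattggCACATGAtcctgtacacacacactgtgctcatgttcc
Acp5, chr8:28943965-28944031, minus strand: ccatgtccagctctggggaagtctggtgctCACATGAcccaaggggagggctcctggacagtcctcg
Clcn7, chr10:14656196-14656260, plus strand: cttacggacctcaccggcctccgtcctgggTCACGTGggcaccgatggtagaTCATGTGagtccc
The windows of Tcirg1, Calcr, Ostm1, Ocstamp and the other Acp5 start did not hold these letters.

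The deposited values are linear signals of the array software, one per probe set and array, with the same 2% trimmed mean on every array. They can be compared between arrays for one probe set, and the levels of different genes are not compared here. Signals of different probe sets are set together only to pick a gene's brightest probe set and to sum marker lists. Such sums weigh bright probe sets most. Median signals lay between 302.78 and 324.58 on the 16 arrays, and the number of arrays limits the precision. Differences were tested on the log2 scale with limma across 18625 probe sets whose mean signal was above 173.5, with Benjamini-Hochberg adjustment and a threshold of 0.05. Of the 11 probe sets of the resorption genes, 9 passed this filter and both Calcr probe sets fell below it. All 6 pairs of strains were compared, so each strain stands in 3 comparisons, which share its arrays and are not independent of each other.

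**Figure D1:**
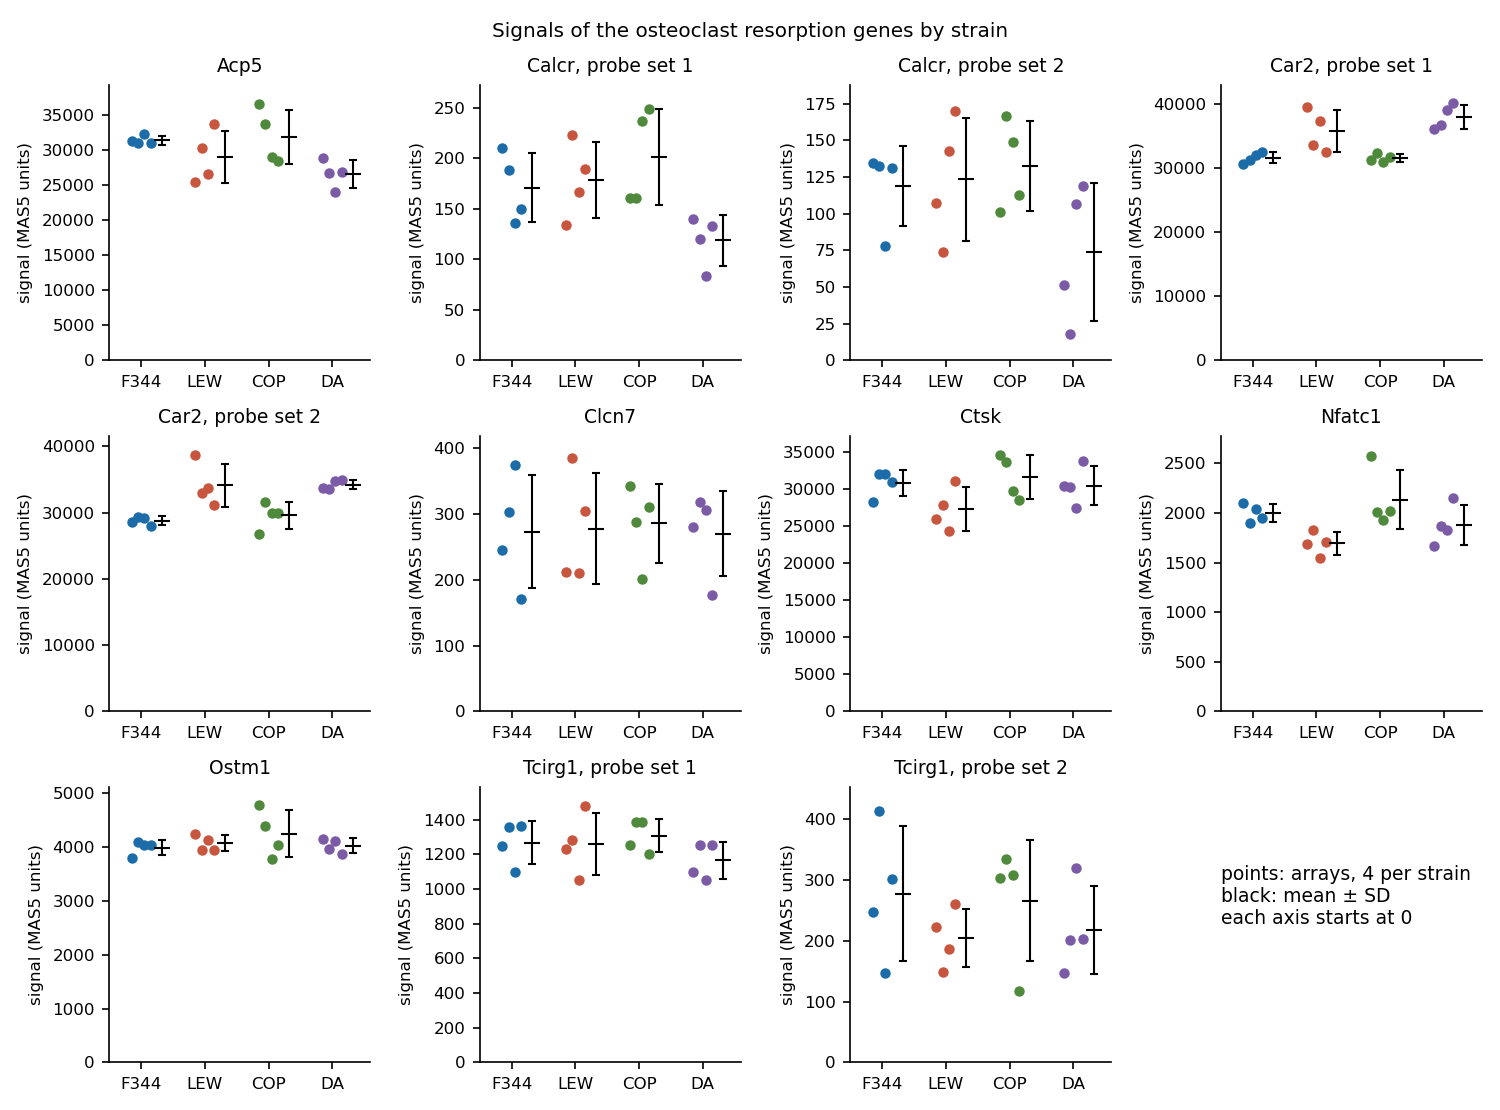
Signals in MAS5 units (vertical axes, starting at 0) of the 11 probe sets, one panel each, with the 4 arrays of F344, LEW, COP and DA as points and the mean ± SD in black. Car2 signals of DA lie above all those of F344 and COP on both probe sets, while the 4 strains overlap for Tcirg1, Clcn7 and Ostm1.

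Car2 (chromosome 2), carbonic anhydrase II, had the smallest adjusted p of the resorption genes. F344 and COP were lower than DA on both of its probe sets, and on 1 of them F344 and COP were also lower than LEW. On the first probe set the signals were 30615, 31334, 32009 and 32528 in F344 and 39550, 33597, 37333 and 32467 in LEW. They were 31215, 32382, 31004 and 31671 in COP and 36139, 36799.8, 39019 and 40128 in DA. All 4 DA signals lay above all 8 signals of F344 and COP. F344 averaged 31622 ± 830.2, LEW 35737 ± 3284, COP 31568 ± 609.8 and DA 38022 ± 1868 (SD, n = 4 each). The test over the 4 strains passed (F-test of limma, adjusted p = 0.00224). F344 signals were lower than DA signals by 0.27 on the log2 scale, with a standard error of 0.0589 (difference -0.27, limma adjusted p = 0.0034). COP signals were lower than DA signals by as much (log2 difference -0.27, limma adjusted p = 0.00425), a COP signal 0.831 times that of DA.

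The second Car2 probe set had signals of 28525, 29371, 29205 and 27935 in F344 and 38679, 33023, 33661 and 31128 in LEW. It had 26814, 31642, 29897 and 29914 in COP and 33698, 33516, 34816 and 34872 in DA. DA again lay above every F344 and COP array, and here LEW also lay above every F344 array. The test over the 4 strains passed on this probe set too (F-test of limma, adjusted p = 0.00351). F344 was lower than LEW (log2 difference -0.24, standard error 0.0619, limma adjusted p = 0.011) and lower than DA (log2 difference -0.25, limma adjusted p = 0.00774). LEW was higher than COP (log2 difference 0.20, limma adjusted p = 0.0302), although the arrays of these strains overlapped, and COP was lower than DA (log2 difference -0.21, limma adjusted p = 0.0278). On the first probe set the LEW comparisons missed the threshold, with log2 differences of -0.17 for F344 minus LEW (limma adjusted p = 0.0567) and 0.17 for LEW minus COP (0.0539). For both probe sets the F-test passed under each of the 25 alternative settings tried. The LEW minus COP call of the second probe set was lost under 8 settings, for example without LEW 1 (limma adjusted p = 0.118) and without COP 1 (0.117), and its COP minus DA call under 7, for example with quantile normalization (0.107). F344 and COP did not differ by the test, with a log2 difference between -0.12 and 0.13 on the first probe set (95% confidence interval). For LEW minus DA the second probe set gave a log2 difference of -0.01 (95% confidence interval -0.14 to 0.12).

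Markers of red cell precursors moved with Car2 between the strains. Of 11 such genes, F344 was lower than LEW in 7, lower than COP in 2 and lower than DA in 6, LEW was higher than COP in 5, and COP was lower than DA in 5, with none called in the opposite direction. The summed signal of the 11 genes ran from 218219 to 242866 in F344, from 275175 to 310734 in LEW, from 227733 to 247893 in COP and from 282238 to 335246 in DA. The ranges of F344 and COP thus lay below those of LEW and DA, as the Car2 means did. Klf1, a transcription factor of the red cell line, differed by -0.36 on the log2 scale between F344 and LEW (limma adjusted p = 0.00165) and by -0.35 between F344 and DA (0.0018). Car1, the carbonic anhydrase known from red cells, differed by -0.48 between F344 and LEW (limma adjusted p = 0.000138) and by -0.43 between F344 and DA (0.000475). The globin gene Hba-a3 differed by -1.80 between F344 and LEW, -2.12 between F344 and DA, 1.90 between LEW and COP and -2.22 between COP and DA. These differences were far larger than the medians of the 11 genes, which were -0.36, -0.23, 0.27 and -0.22 in the same order. The count for COP minus DA was 3 in place of 5 with quantile normalization, and that for F344 minus COP was 1 in place of 2 without COP 2 or without COP 4. The part of red cell RNA in the Car2 differences was not tested.

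Nfatc1 (chromosome 18), the transcription factor that drives osteoclast formation downstream of RANKL, was lower in LEW than in COP. Its signals were 2102, 1900.4, 2037 and 1946 in F344 and 1691, 1832, 1549 and 1711 in LEW. They were 2572, 2008, 1933 and 2023 in COP and 1664, 1864, 1826 and 2148 in DA. Every LEW array lay below every F344 and every COP array, while DA overlapped all the other strains, and COP 1 stood well above its group. F344 averaged 1996 ± 90.4, LEW 1696 ± 116, COP 2134 ± 295 and DA 1875 ± 201 (SD, n = 4 each). Ordered by mean, COP came first, then F344, DA and LEW, and no neighbours in this order differed by the test. The LEW minus COP difference was -0.32 on the log2 scale (standard error 0.0906, limma adjusted p = 0.0182), a LEW signal 0.799 times that of COP. Without COP 1 it was -0.23 (limma adjusted p = 0.0824), and without LEW 3 it was -0.28 (0.068). F344 minus LEW was 0.24 (limma adjusted p = 0.0912), which became 0.0454 without COP 1 and 0.0483 when only the 8 F344 and LEW arrays were fitted. The F-test over the 4 strains gave a limma adjusted p of 0.0414 for Nfatc1, and it passed in 9 of 25 alternative settings.

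Acp5 (chromosome 8) codes for tartrate-resistant acid phosphatase, the enzyme whose staining marks osteoclasts, and Ctsk (chromosome 2) for cathepsin K, the protease that cuts bone collagen. Acp5 signals were 31295, 30978, 32265 and 30952 in F344 and 25451, 30240, 26602 and 33655 in LEW. They were 36504, 33661, 29029 and 28398 in COP and 28802, 26669, 24030 and 26897 in DA. Every F344 array lay above every DA array, while LEW and COP spread widely and overlapped each other and both of those strains. F344 averaged 31372 ± 615, LEW 28987 ± 3722, COP 31898 ± 3865 and DA 26599.8 ± 1962 (SD, n = 4 each). The SD of Acp5 in F344 was thus far smaller than that in LEW and COP. No Acp5 comparison passed: F344 minus DA was 0.24 (95% confidence interval 0.06 to 0.42, limma adjusted p = 0.0601) and COP minus DA was 0.26 (0.08 to 0.44, limma adjusted p = 0.0552). Over the alternatives the adjusted p of F344 minus DA ran from 0.0101 to 0.178 and that of COP minus DA from 0.028 to 0.196, and with quantile normalization both were under the threshold (0.0249 and 0.0308). Acp5 in F344 minus LEW was 0.12 (95% confidence interval -0.06 to 0.30, limma adjusted p = 0.392).

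Ctsk signals were 28330.1, 32075, 32058 and 30964 in F344 and 26050.3, 27919.6, 24331 and 31159.5 in LEW. They were 34669.5, 33709, 29761 and 28618 in COP and 30430.5, 30321, 27470.2 and 33873 in DA. LEW had the lowest mean, and the arrays of each pair of strains overlapped. F344 averaged 30857 ± 1763, LEW 27365 ± 2923, COP 31689 ± 2951 and DA 30524 ± 2620.0 (SD, n = 4 each). The F-test did not pass for Ctsk (limma adjusted p = 0.145), and the largest difference, LEW minus COP, was -0.21 (95% confidence interval -0.38 to -0.05, limma adjusted p = 0.0863). Without LEW 4 this difference passed (limma adjusted p = 0.0199), as did F344 minus LEW (log2 difference 0.24, limma adjusted p = 0.0429). With quantile normalization LEW minus COP passed as well (0.0336), and with all arrays F344 minus LEW was 0.18 (95% confidence interval 0.01 to 0.34, limma adjusted p = 0.157).

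The 3 remaining tested genes belong to acid secretion: Tcirg1 (chromosome 1) is the osteoclast subunit of the proton pump's membrane part, Clcn7 (chromosome 10) the chloride and proton antiporter, and Ostm1 (chromosome 20) the partner protein that Clcn7 needs. None of them differed between strains by the test. Ostm1 was the steadiest: its signals ran from 3794 to 4093 in F344, from 3939 to 4252 in LEW, from 3778 to 4786 in COP and from 3871 to 4159 in DA. The COP range held all the others, and the SD of Ostm1 within strains was 0.09 on the log2 scale, against 0.04 between strain means. Its largest difference was F344 minus COP at -0.08 (95% confidence interval -0.22 to 0.05, limma adjusted p = 0.412).

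On the first Tcirg1 probe set F344 averaged 1267 ± 125, LEW 1261 ± 177, COP 1309 ± 95.3 and DA 1166 ± 105 (SD, n = 4 each). All strains overlapped, and the largest difference was COP minus DA at 0.17 (95% confidence interval -0.04 to 0.38, limma adjusted p = 0.32). The second Tcirg1 probe set was far noisier, with an SD within strains of 0.55 on the log2 scale against 0.15 for the first. Its signals ran from 147 to 413 in F344, from 149 to 261 in LEW, from 118 to 334 in COP and from 148 to 319.8 in DA, and the interval for its F344 minus LEW difference ran from -0.31 to 1.07. Clcn7 had an SD within strains of 0.41, and signals from 171 to 375 in F344, from 211 to 385 in LEW, from 202 to 343 in COP and from 177 to 318 in DA. The spread of Clcn7 within each strain was larger than any difference between strain means, and its F-test gave a limma adjusted p of 0.986. For COP minus DA the Clcn7 interval ran from -0.44 to 0.62, so differences of the size seen in Car2 were not detectable on this probe set.

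Calcr (chromosome 4), the calcitonin receptor through which the hormone stops osteoclasts, lay below the filter on both probe sets and was left out of the main test. Its first probe set had signals of 209.9, 188, 136 and 149.8 in F344 and 134, 223, 167 and 189.6 in LEW. It had 161, 161, 237 and 248 in COP and 139, 119.8, 83.2 and 133 in DA. All 4 COP arrays lay above all 4 DA arrays, and the other strains overlapped both. In a fit of all probe sets with no filter, COP minus DA was 0.76 on the log2 scale (standard error 0.259, limma adjusted p = 0.0948). The second Calcr probe set had 134, 133, 77.8 and 131 in F344, 107, 73.6, 143 and 169.9 in LEW, 101, 167, 149 and 113 in COP and 51.4, 18.3, 107 and 119 in DA. Its strains overlapped, with a COP minus DA difference of 1.14 (standard error 0.474, limma adjusted p = 0.183 with no filter), and DA had the lowest mean on both probe sets. F344 and LEW, the parents of the cross, had Calcr means of 171 ± 34.1 and 178 ± 37.2 on the first probe set (SD, n = 4 each), a smaller gap than either SD.

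Counted over the 9 tested probe sets, 3 passed the F-test over the 4 strains (Nfatc1 and both of Car2), where 31.2% of all probe sets passed, so that the share of the resorption genes was close to that of the array. In F344 minus LEW, 1 was called lower and none higher, against 7.25% of all probe sets lower and 6.53% higher. In F344 minus COP limma called none, with none at an unadjusted p under 0.05 either, against 9.4% higher and 10.5% lower. In F344 minus DA, 2 were called lower (Car2) and none higher, against 8.44% lower and 7.66% higher. In LEW minus COP, 1 was called higher (Car2) and 1 lower (Nfatc1), against 6.25% higher and 7.49% lower. In LEW minus DA limma called none, with none at an unadjusted p under 0.05, against 5.03% higher and 5.42% lower. In COP minus DA, 2 were called lower (Car2) and none higher, against 5.93% lower and 5.94% higher. The median difference of the 7 tested genes, each by its brightest probe set, ran from -0.06 in LEW minus COP to 0.09 in COP minus DA, and the median of all genes from -0.02 in LEW minus DA to 0.01 in F344 minus LEW.

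**Figure D2:**
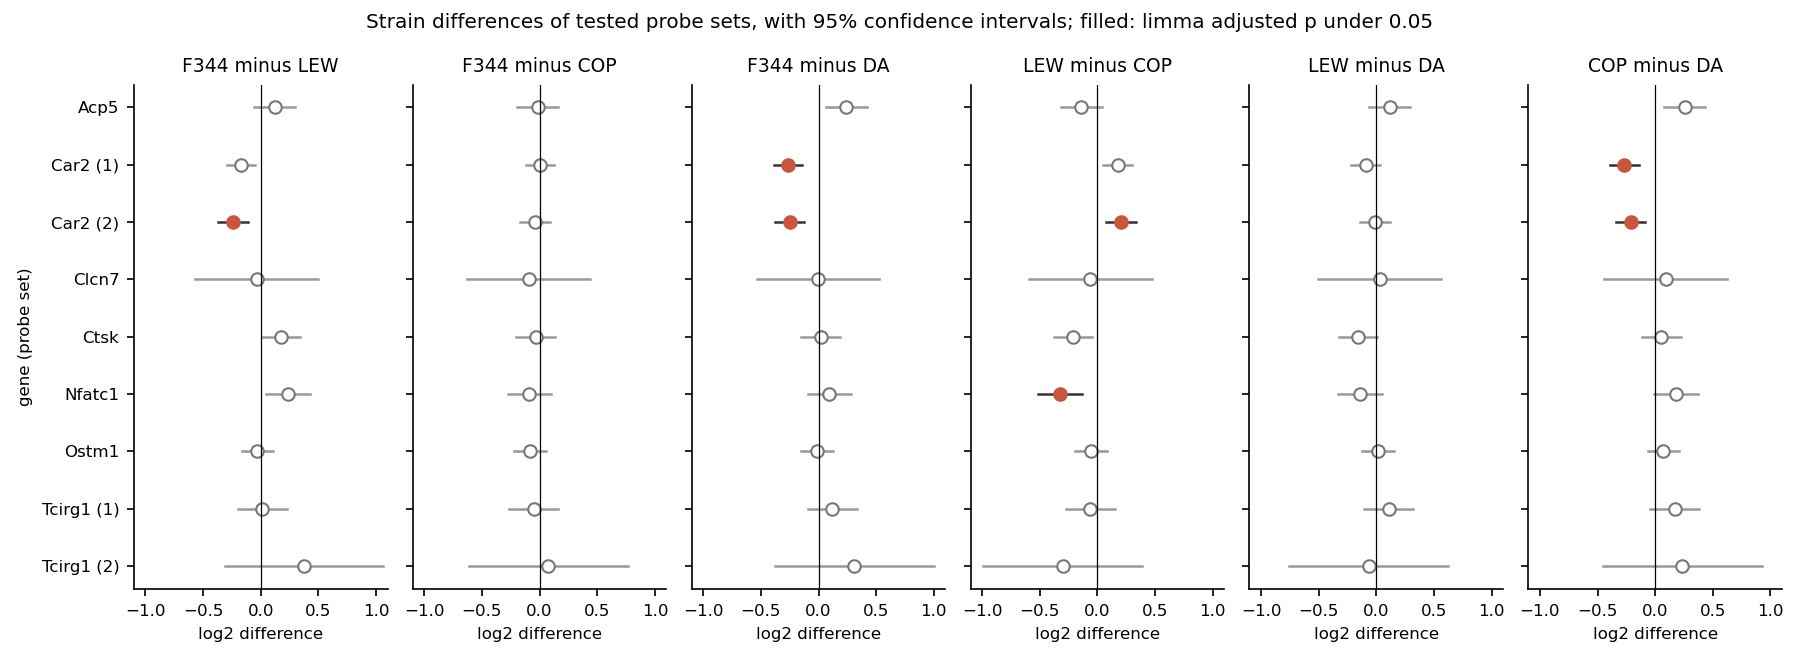
Log2 differences (horizontal axes) of the 9 tested probe sets in the 6 comparisons, with 95% confidence intervals; filled points passed limma's adjusted threshold of 0.05. The filled points are Car2 and, in LEW minus COP, Nfatc1, and the intervals of Clcn7 and of the second Tcirg1 probe set are the widest.

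Genes that work beside the resorption genes were counted in 5 lists, each gene by its brightest probe set above the filter. Where no loss is given beside a named gene, its call was lost in at most 2 of the alternatives. These include the looser threshold of an adjusted p under 0.10, at which no call can be lost. The share of all 10548 genes that passed the F-test was 32.9%. Per comparison, the shares called higher and lower were 6.96% and 7.54% in F344 minus LEW, 10.4% and 10.6% in F344 minus COP, and 8.11% and 9.2% in F344 minus DA. They were 6.41% and 7.72% in LEW minus COP, 4.65% and 5.77% in LEW minus DA, and 5.74% and 6.42% in COP minus DA.

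Of 16 tested subunits of the proton pump other than Tcirg1, 3 passed the F-test. Atp6v1b2, the nucleotide-binding subunit of the pump's cytosolic part, was higher in COP than elsewhere: LEW minus COP was -0.38 (standard error 0.0694, limma adjusted p = 0.000511) and COP minus DA was 0.43 (limma adjusted p = 0.000187), with F344 minus COP at -0.25 (0.0129). A second Atp6v1b2 probe set was not called in these comparisons, with differences of -0.22 and 0.23 in the first pair. Atp6v1f was called between COP and DA (0.24, limma adjusted p = 0.00735) and between F344 and COP (-0.18, 0.0302, lost in 7 of 27 alternatives, among them without COP 1, COP 2 or COP 3). Atp6v1c1 was called in F344 minus LEW (0.20, limma adjusted p = 0.0493, lost in 18 of 27 alternatives) and in LEW minus COP (-0.25, 0.0146). In F344 minus DA and in LEW minus DA limma called no subunit, with 2 and 3 at an unadjusted p under 0.05.

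Of 16 signals that make osteoclasts from precursors, 4 passed the F-test, so not every gene named here for a strain pair did. Fos, a partner of Nfatc1 and also an early response gene in many cells, was higher in F344 than in LEW (log2 difference 0.92, standard error 0.195, limma adjusted p = 0.00255) and than in DA (0.78, 0.00845), and lower in LEW than in COP (-0.63, 0.0337, lost in 10 of 27 alternatives). Csf1r, the receptor for the growth factor M-CSF, was higher in F344 than in LEW (0.30, limma adjusted p = 0.0151). Csf1r is also on the list of macrophage markers below, so this call is counted in both lists. Irf8, a factor known to hold Nfatc1 in check, was lower in LEW than in COP (-0.38, limma adjusted p = 0.00083) and higher in COP than in DA (0.26, 0.019, lost in 3 of 27 alternatives), so it was lower in the same comparison as Nfatc1. Nfkb1 was lower in LEW than in COP (-0.35, limma adjusted p = 0.0133) and in F344 than in COP (-0.28, 0.0392, lost in 7 of 27 alternatives). Jdp2 was called in F344 minus DA (0.58, limma adjusted p = 0.0476, lost in 15 of 26 alternatives).

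Of 8 costimulation and fusion genes, 6 passed the F-test, and every call of a strain pair was lower in F344 or lower in LEW. In F344, 3 of the 8 were lower than in LEW, 6 lower than in COP and 5 lower than in DA, and in LEW 3 were lower than in COP. Over the alternatives with the same threshold, the 60th percentile filter aside, these counts ran from 1 to 3, from 5 to 6, from 3 to 5 and from 2 to 4. Btk, a kinase that osteoclasts share with B cells, was lower in F344 by 0.37 against LEW (difference -0.37, limma adjusted p = 0.00257), -0.66 against COP (3.77e-06) and -0.51 against DA (0.000107). Syk differed by -0.29, -0.43 and -0.48 in the same order (limma adjusted p = 0.0235, 0.000927 and 0.000397), and the first of these was lost in 4 of 27 alternatives. Plcg2 was lower in F344 than in COP (-0.72, limma adjusted p = 0.0013) and than in DA (-0.56, 0.0121). Cd47 was lower in F344 than in LEW (-0.21, limma adjusted p = 0.0386, lost in 7 of 27 alternatives), and a second Cd47 probe set was called the same way at -0.33. Btk was also lower in LEW than in COP (-0.28, limma adjusted p = 0.0191). Tyrobp, the adaptor DAP12, and Fcer1g, its partner adaptor, were lower in LEW than in COP (-0.52 and -0.24, limma adjusted p = 0.00419 and 0.00401). These genes are also used by B cells and neutrophils, whose markers were also called lower in F344. All 4 tested B-cell markers were lower in F344 than in each other strain. Of 7 neutrophil markers, 4 were lower in F344 than in LEW, 6 than in COP and 5 than in DA. Outside F344 the lists differed. In LEW minus COP, 1 B-cell marker was higher and none lower, while 3 neutrophil markers were lower. In LEW minus DA and COP minus DA, with no costimulation call, 2 B-cell markers were higher in each. The neutrophil calls higher and lower were 1 and 2 in LEW minus DA, and 4 and 0 in COP minus DA. The summed signal of the 7 neutrophil markers ran from 110261 to 115084 in F344, from 126487 to 149320 in LEW, from 154236 to 163062 in COP and from 129280 to 153629 in DA. The mean centred log2 level of the same genes ran from -0.653 to -0.547 in F344 and from 0.133 to 0.247 in LEW. It ran from 0.552 to 0.623 in COP and from -0.246 to -0.114 in DA. LEW thus lay above DA by this level, while their sums overlapped and the list's median LEW minus DA difference was -0.16. The part of B cells and neutrophils in the costimulation list was not tested.

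Of 13 attachment and ruffled border genes, 4 passed the F-test, so not every gene named here for a strain pair did. Snx10, a sorting protein needed for the ruffled border, was higher in F344 than in LEW (0.37, limma adjusted p = 0.0104), than in DA (0.35, 0.0155) and than in COP (0.27, 0.0469, lost in 12 of 27 alternatives). The second Snx10 probe set was called in F344 minus LEW, at 1.07, and in neither of the other F344 comparisons, where it was -0.19 against COP, opposite in sign to the first, and 0.15 against DA. Lamp1, a lysosomal membrane protein, was higher in F344 than in LEW, and lower in LEW than in COP and DA (F344 minus LEW 0.30, LEW minus COP -0.30 and LEW minus DA -0.33, with limma adjusted p of 0.00262, 0.00232 and 0.00121). The kinase gene Src was lower in LEW than in COP (-0.34, limma adjusted p = 0.0477, lost in 15 of 27 alternatives), as was Plekhm1 (-0.32, 0.0391, lost in 11 of 27). A second Src probe set was called the same way, at -0.54. F344 was lower than COP and DA in Fermt3, which couples integrins to the cytoskeleton (-0.31 and -0.27, limma adjusted p = 0.00341 and 0.0115), and in the adaptor Cbl (-0.22 and -0.24, 0.0126 and 0.00855). Of 2 other Cbl probe sets above the filter, 1 was called the same way in each comparison. Their differences were larger, at -1.53 and -0.38 against COP and -1.41 and -0.37 against DA. Itgav, an integrin chain of the sealing contact, was higher in COP than in DA (0.37, limma adjusted p = 0.0328, lost in 8 of 27). The 2 other Itgav probe sets above the filter were not called in that comparison, with differences of 0.12 and 0.19.

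Of 10 proteases and inhibitors found near the resorption pit, 6 passed the F-test. Timp1, an inhibitor of matrix metalloproteinases, was higher in F344 than in LEW (0.45, limma adjusted p = 0.00424) and than in DA (0.74, 2.82e-05), and higher in COP than in DA (0.64, 0.000199); LEW minus COP was -0.35 (0.0229, lost in 7 of 27 alternatives, among them without LEW 1, LEW 2 or LEW 3). Mmp9, the gelatinase of osteoclasts and neutrophils, was higher in LEW than in COP (0.39, limma adjusted p = 0.00285) and than in DA (0.62, 2.44e-05), the reverse of Nfatc1 in the first pair. Mmp13, a collagenase of osteoblasts and cartilage, was lower in DA, with 0.34, 0.36 and 0.28 for F344, LEW and COP minus DA (limma adjusted p = 0.000903, 0.000613 and 0.00652). The lysosomal protease genes Ctsd and Ctss moved in opposite directions between F344 and LEW, at -0.28 and 0.25 (limma adjusted p = 0.00418 and 0.00407). Ctsd was also higher in LEW than in COP (0.41, limma adjusted p = 7.57e-05) and lower in COP than in DA (-0.25, 0.00986), and Ctss was lower in LEW than in DA (-0.22, 0.014, lost in 3 of 27 alternatives). Mmp9 was higher in F344 than in DA as well (0.39, limma adjusted p = 0.0027). A second Mmp9 probe set was called the same way, at 0.55 in LEW minus COP, 0.89 in LEW minus DA and 0.42 in F344 minus DA.

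Markers of other cells in the bone pieces were counted in the same way. Of 10 macrophage markers, the calls higher and lower were 6 and 0 in F344 minus LEW, 3 and 1 in F344 minus COP, 2 and 1 in F344 minus DA, 1 and 3 in LEW minus COP, 1 and 3 in LEW minus DA, and 2 and 3 in COP minus DA. Over the alternatives with the same threshold, the 60th percentile filter aside, the macrophage count higher in F344 than in LEW ran from 4 to 6, and the smaller counts moved by at most 2 genes. Of 9 osteoblast markers, 1 was higher in F344 than in LEW and 2 were higher in F344 than in DA, with no other call in the fit of all arrays. With quantile normalization 4 osteoblast markers were higher in F344 than in DA and 3 higher in COP than in DA. The F344 minus LEW count of 1 became 3 without LEW 4, and 0 without F344 1, F344 2, LEW 1, LEW 2 or LEW 3.

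Of 12 muscle markers, 5 were higher in F344 than in COP, 1 was higher in F344 than in LEW and 1 higher in F344 than in DA, and in LEW minus COP there was no call. In LEW minus DA 1 muscle marker was higher and 1 lower, and in COP minus DA 1 was higher and 6 were lower. The F344 minus COP count was 3 without COP 1, F344 2 or F344 4, and the count lower in COP than in DA was 3 without COP 1 and 2 without DA 4. Of 7 adipocyte markers, 4 were higher in F344 than in COP and 3 were lower in COP than in DA. In LEW minus COP 3 adipocyte markers were higher and 1 lower, in LEW minus DA 1 was lower, and there was no call in F344 minus LEW or F344 minus DA. The 1 adipocyte call lower in LEW than in COP was lost without any single array of LEW, among other settings.

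**Figure D3:**
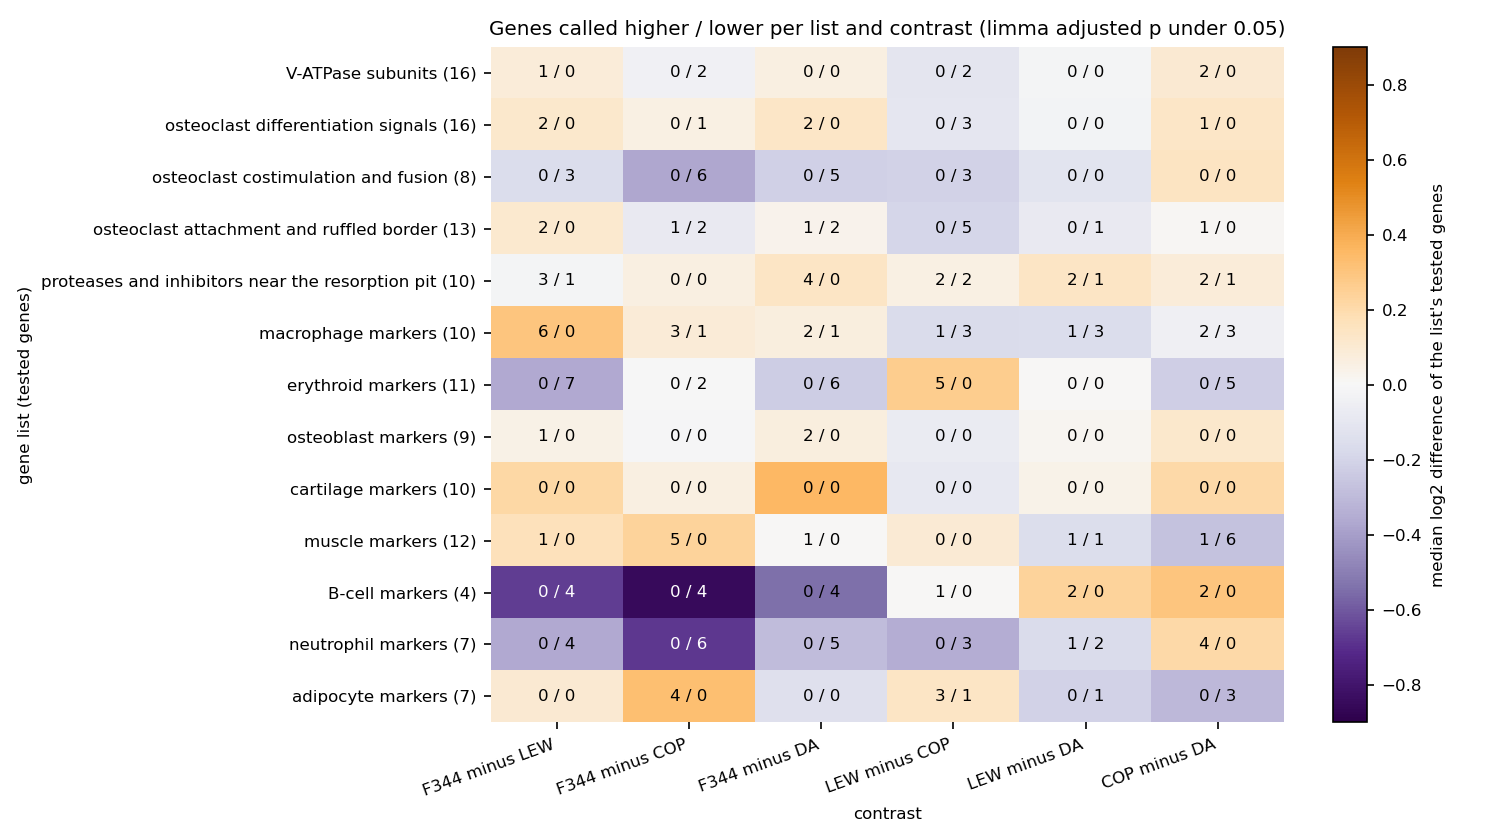
Numbers of genes called higher / lower (limma adjusted p under 0.05) in each list (rows, with the number of tested genes) and comparison (columns), over colours for the median log2 difference of the list. The costimulation row holds 0 / 3, 0 / 6 and 0 / 5 in the F344 comparisons, next to 0 / 4 in each for the B-cell markers.

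Within strains, the arrays also differed in ways that touched the resorption genes. Strain means were subtracted from each log2 signal, and the relations were tested by shuffling arrays within strains (two-sided permutation test, 100000 resamples, 16 arrays). Among the 21 pairs of the 7 tested genes none passed after Benjamini-Hochberg adjustment, while 1 pair stood out in size. Acp5 and Ctsk were related with r = 0.819 (permutation p = 0.00419, adjusted p = 0.088) and a Spearman's rho of 0.77 (permutation p = 0.0105, adjusted p = 0.222). Their r was above 0 in each of the 4 strains, and it was 0.718 without COP 1 and LEW 4, the arrays farthest out in Acp5. Acp5 and Car2 gave r = -0.622 (permutation p = 0.0609, adjusted p = 0.379), but the sign differed between strains. That r was -0.975 in LEW and -0.56 in DA, against 0.102 in F344 and 0.169 in COP.

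Between the 7 genes and 8 lists of markers of other cells, 56 relations were tested and 5 passed by r. Ctsk followed the mean of 9 osteoblast markers with r = 0.922 (permutation p = 6e-05, adjusted p = 0.00336) and rho = 0.967 (p = 7e-05 by permutation, adjusted 0.00392), and r was 0.901 without LEW 3 and LEW 4. Ctsk also followed the 10 cartilage markers (r = 0.803, adjusted permutation p = 0.0312; rho = 0.866, 0.0157; r = 0.738 without LEW 3 and LEW 4). Acp5 followed the cartilage markers with r = 0.905 (adjusted permutation p = 0.0202), a rho of 0.88 whose adjusted p was 0.0598, and r = 0.822 without COP 1 and LEW 4. That r was positive in 3 of 4 strains and -0.585 in F344. Acp5 ran against the 11 red cell markers with r = -0.893 (adjusted permutation p = 0.00812) and rho = -0.881 (adjusted permutation p = 0.0157). Without COP 1 and LEW 4 this r was -0.829. Within single strains r was -0.961 in LEW, -0.964 in COP and -0.798 in DA, but only -0.058 in F344. Car2 followed the 7 neutrophil markers with r = 0.809 (adjusted permutation p = 0.0202) and rho = 0.858 (adjusted permutation p = 0.0157). Without LEW 1 and LEW 4 this r was 0.774. Within single strains r was 0.788 in F344, 0.957 in LEW and 0.962 in DA, but only 0.221 in COP. Car2 and the red cell markers gave r = 0.662 (adjusted permutation p = 0.0553) within strains, and 0.476 without LEW 1 and LEW 4. This r was 0.949 in F344, 0.982 in LEW and 0.938 in DA, but -0.04 in COP.

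The cartilage markers spread widely within LEW and COP. Their mean centred log2 level ran from 0.159 to 0.202 in F344, from -0.521 to 0.422 in LEW, from -0.41 to 0.482 in COP and from -0.329 to -0.003 in DA. The strains with a wide spread of Acp5, LEW and COP, were those with a wide spread of cartilage markers, with the highest cartilage level on LEW 4 and COP 1, the arrays with the highest Acp5 signal of their strains. With all arrays limma called no cartilage marker between strains, although the list's median difference was 0.36 in F344 minus DA, and at an unadjusted p under 0.05 there were 3 markers in F344 minus LEW, 3 in F344 minus DA and 1 in each of LEW minus COP, LEW minus DA and COP minus DA. The count depended on the fit: 7 of 10 were higher in F344 than in DA when only those 8 arrays were fitted. Without LEW 4, 3 were higher in F344 than in LEW, 1 was higher in F344 than in DA and 2 were lower in LEW than in COP. Without COP 4, 1 was lower in LEW than in COP and 1 was higher in COP than in DA. The tissue pieces' make-up and its part in the Acp5 and Ctsk values were not tested.

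**Figure D4:**
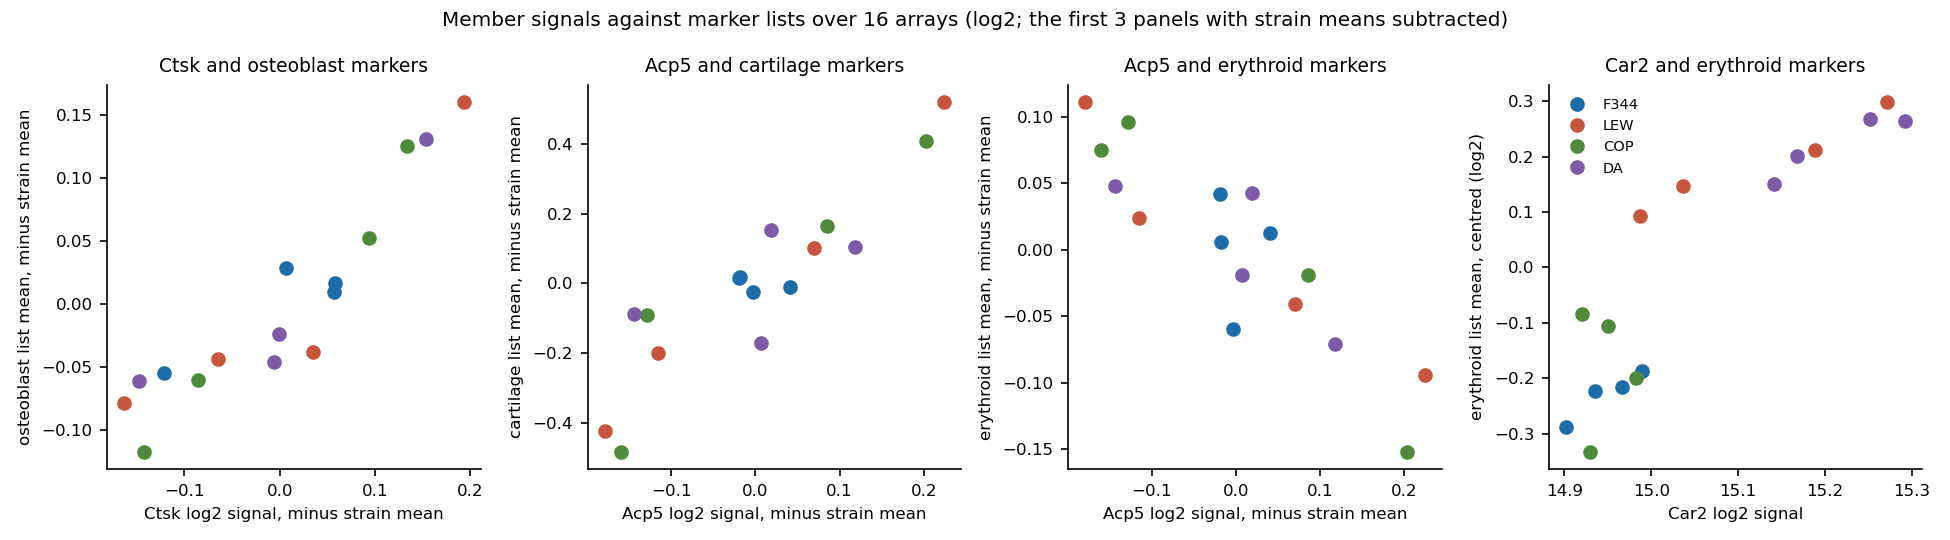
Log2 levels over 16 arrays, coloured by strain: the first 3 panels show Ctsk against osteoblast markers, Acp5 against cartilage markers and Acp5 against red cell markers, with strain means subtracted, and the last shows Car2 against red cell markers without subtraction. LEW and COP arrays lie at both ends for Acp5, and in the last panel LEW and DA lie above F344 and COP.

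The 3 genes most like each resorption gene were taken by Pearson's r over the 16 arrays, each point being 1 RNA sample on 1 array, as a description. They were picked as the highest r among many genes, so a high r is partly a matter of selection, and none was tested. For Acp5 they were Marveld1 (0.946), Fkbp7 (0.934) and the cartilage matrix gene Comp (0.926), and with strain means subtracted Kdelr3 (0.969), Mmp9 (0.953) and the cartilage collagen gene Col11a2 (0.947). For Ctsk they were Atp6ap1 (0.881), an accessory protein of the proton pump, Fmod (0.876) and P4ha1 (0.84), and with strain means subtracted Mmp13 (0.917), Fndc3b (0.912) and Eps8l2 (0.873). For Car2 they were Fech (0.93), the last enzyme of heme synthesis, Klf1 (0.906) and Npy (0.906), and with strain means subtracted Pnp (0.865), Ptpn6 (0.862) and Usp30 (0.857). For Nfatc1 they were Bdh2 (0.865), Tbc1d16 (0.852) and Pard6g (0.848), and with strain means subtracted Tbc1d16 (0.874), Meltf (0.841) and Ntrk2 (0.799).

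Tcirg1, Clcn7 and Ostm1 were described in the same way. For Tcirg1 the nearest were Zfp469 (0.807), Cd164 (0.775) and Xbp1 (0.758), and with strain means subtracted Nomo1 (0.853), Zfp469 (0.841) and Bloc1s6 (0.839). For Clcn7 they were Tmcc1 (0.742), Ptprk (0.737) and Bcar1 (0.717), and with strain means subtracted Socs5 (0.832), Rragc (0.823) and Epb41l4a (0.819). For Ostm1 they were Zbtb45 (0.804), Timeless (0.718) and Capza1 (0.698), and with strain means subtracted Tradd (0.818), Timeless (0.777) and Nxf1 (0.773).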

How the data were processed

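Total RNA of the proximal femur was labelled and hybridised to 16 arrays, 4 per strain. The authors deposited linear signal intensity values for 31099 probe sets, which MAS5 produced (tool per the submitters' processing notes); the 2% trimmed mean was 1000.3 on each array. Genome build and annotation version are not given in the sources used here. Gene names came from the platform annotation: of 31042 probe sets that are not controls, 20826 had 1 symbol, 436 several and 9780 none. Values under 1 (255) were set to 1 before taking log2. Probe sets whose mean log2 signal lay above the 40th percentile (18625) were fitted with limma 3.58.1 in R 4.3.3, with 1 mean per strain, an intensity trend and Benjamini-Hochberg adjustment; the fit was tested on simulated data.

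The resorption genes and the gene lists were chosen with earlier results of these data known. Every probe set of the resorption genes was named. For the other lists, up to 3 called genes with the largest difference were named per comparison. Relations and figures used Python 3.11.15 with numpy 2.4.6, scipy 1.17.1 and matplotlib 3.10.9. Spearman's rho used ranks of the strain-centred values, centred within strains. The alternatives were other scalings, filters, moderation, array weights, a replicate block, a threshold of 0.10, only the arrays of the strain pair, and leaving out each array. Promoter sequences and their positions came from RefSeq (GRCr8).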

Additional observations from a re-analysis of the deposited data

Results flagged for a closer look

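The 4 arrays of each strain were screened on each of the 11 probe sets for an array far from the other 3 by Dixon's test, which chance passes in about 1 of 20 groups. Of 44 groups, 3 passed. Nfatc1 on COP 1 had a signal of 2572.42, against 1932.57 to 2023.13 on the other COP arrays, and the LEW minus COP call of Nfatc1 was lost without it. The second Tcirg1 probe set on COP 4 had 117.89, against 303.13 to 333.65 on the other COP arrays. The second Calcr probe set on F344 3 had 77.80, against 131.07 to 134.49 on the other F344 arrays, all below the filter.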

How the results depend on the processing

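No difference of a resorption gene changed sign where it had been called. The count of probe sets called in F344 minus LEW, 1 as reported, was 2 with the 60th percentile filter, with robust moderation, with array weights and with only the 8 arrays of both strains, 3 at an adjusted p under 0.10, and 1 to 3 when 1 array was left out. In LEW minus COP, 2 as reported, it was 4 with quantile normalization and at an adjusted p under 0.10, 1 with no filter, with no intensity trend and with only 8 arrays, and 0 to 4 without 1 array. In COP minus DA, 2 as reported, it was 1 with no filter and with no intensity trend, and 1 to 3 without 1 array. The F-test count ran from 2 to 4 without 1 array, and the F344 minus DA count from 2 to 3. F344 minus COP and LEW minus DA stayed at 0 when 1 array was left out. With the replicate number as a block the counts were 1 in LEW minus COP and 1 in COP minus DA. The correlation of deviations for 24 same-numbered pairs of arrays ran from -0.173 to 0.088. For the 72 pairs with unlike numbers it ran from -0.152 to 0.207. Whether the numbers mark a shared batch cannot be told from these correlations. The cause of these changes was not tested. Precision rests on 4 arrays per strain, and the dim Clcn7, Calcr and second Tcirg1 probe sets limit it most.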
